A study of Mus musculus with 15 samples.

Results

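The Hox genes are the transcription factor genes that lie in 4 clusters of the mouse genome, HoxA, HoxB, HoxC and HoxD, and that carry the homeobox, the stretch of coding sequence for a DNA-binding homeodomain. They were taken from the expression table of 5 lines of the murine Lewis lung carcinoma LL2 by their symbol (Hox, a cluster letter from a to d and a number), which found 39 genes among the 35880 gene symbols listed. The clusters hold 11, 10, 9 and 9 of them. Along each cluster the genes are numbered from 1 to 13, and in the embryo low numbers are used towards the head and high numbers towards the tail, so that a cell keeps a record of its position as a combination of Hox genes. Adult tissues and tumor cells often keep such a combination. In the developing lung, Hoxa5 and Hoxb5 are among the members known to act in airway branching. Here groups 1 to 4 are called anterior, 5 to 8 central and 9 to 13 posterior.

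LL2 is a cell line from a lung tumor that arose spontaneously in a mouse, used here as LL2/Luc2 and grown in DMEM with fetal bovine serum. RNA sequencing covered 15 samples, 3 biologic replicates of each of 5 lines. LL2 WT is the parental line. KEAP1 KO #1, KEAP1 KO #2 and KEAP1 KO #3 are 3 lines in which Keap1 was knocked out with CRISPR, and NRF2 KO is 1 line in which Nfe2l2, the gene for NRF2, was knocked out. KEAP1 is the adaptor that marks NRF2 for breakdown, so that its loss leaves NRF2 active. Each knockout line was grown from a single sorted cell, so that the knockout and the history of the clone cannot be told apart within a line, and LL2 WT is not a clone. The labels do not say whether the replicates were separate cultures, and the p-values measure the spread between these samples.

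The values are CPM, the reads assigned to a gene scaled to the same total in every sample (999412 to 999525 over the named genes). The study's methods give 1 average read depth for all libraries and the table holds no read counts, so the reads behind each value are known only roughly, and the smallest level read here as detected was set at 0.1 CPM. Mean Keap1 was 23.0 CPM in LL2 WT, 22.7 CPM in NRF2 KO and 11.8, 5.53 and 5.58 CPM for KEAP1 KO #1, #2 and #3. Mean Nfe2l2 was 186 CPM in LL2 WT, 96.4, 123 and 116 CPM in the KEAP1 KO lines and 119 CPM in NRF2 KO, so that its transcript was not lost in NRF2 KO and its level did not tell that line from the KEAP1 KO lines. The NRF2 target Nqo1 averaged 30.3, 476, 276, 488 and 9.82 CPM in LL2 WT, KEAP1 KO #1, #2, #3 and NRF2 KO. The third replicates stood apart from the others in every line. Across 11676 genes, their deviations from the line means correlated between lines at 0.422 to 0.631, and calls that change without all of them are given beside the gene. The labelled origin was checked against markers of lung epithelium. Nkx2-1, Sftpa1, Sftpd and Scgb1a1 were at 0 in the 3 LL2 WT samples, and the summed level of the 13 markers (613 to 688 CPM) came mostly from the keratin genes Krt8 and Krt18, which other epithelia share. The 5 leukocyte markers summed to at most 0.286 CPM in any sample.

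Homeoboxes of 3 members with large falls are shown so that these genes can be told from each other. Each is 180 bases on the plus strand of GRCm38, read 5′ to 3′ from the GENCODE transcripts, with the 18 bases for the residues WFQNRR, which are shared by the recognition helix of all 39 members, in capitals. Those of Hoxb6 (chr11:96300689-96300868) and Hoxb9 (chr11:96274659-96274838) lie in the last coding exon of 2 genes of HoxB, and that of Hoxc6 (chr15:103010754-103010933) in the same place of HoxC.
Hoxb6: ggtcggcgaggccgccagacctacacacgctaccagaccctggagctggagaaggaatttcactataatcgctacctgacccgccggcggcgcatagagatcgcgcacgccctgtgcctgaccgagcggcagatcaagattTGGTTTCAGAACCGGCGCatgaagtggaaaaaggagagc
Hoxb9: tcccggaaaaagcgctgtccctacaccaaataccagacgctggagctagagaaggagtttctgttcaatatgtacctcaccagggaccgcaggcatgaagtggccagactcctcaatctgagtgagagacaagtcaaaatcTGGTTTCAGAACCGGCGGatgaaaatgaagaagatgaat
Hoxc6: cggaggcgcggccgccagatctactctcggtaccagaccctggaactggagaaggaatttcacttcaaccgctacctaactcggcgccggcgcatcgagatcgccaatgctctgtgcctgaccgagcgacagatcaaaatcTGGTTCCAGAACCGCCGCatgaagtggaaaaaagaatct
The homeoboxes of Hoxb6 and Hoxc6 shared 149 of 180 bases and 55 of 60 residues. Hoxb9 shared 112 bases with Hoxb6 and 109 with Hoxc6. The longest stretch common to any pair among these 3 was 19 bases. Over the whole transcripts, 2.55% of the 31-base words of Hoxb5, 1.21% of Hoxb6, 0.782% of Hoxb9 and 0.126% of Hoxc6 occurred in any other gene.

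LL2 WT expressed HoxA, HoxB and HoxD genes and hardly any HoxC gene. Of the 39 genes, 21 averaged at least 1 CPM in at least 1 line and 14 did so in every line, where 34.9% of all 35880 genes reached that level in any line. LL2 WT held 19 such genes, KEAP1 KO #1 15, KEAP1 KO #2 17, KEAP1 KO #3 18 and NRF2 KO 19. By cluster, 9 of 11 HoxA, 7 of 10 HoxB, 0 of 9 HoxC and 5 of 9 HoxD genes reached 1 CPM in any line. By position it was 9 of 12 anterior, 7 of 11 central and 5 of 16 posterior genes. The 14 present in every line were Hoxa3, Hoxa5, Hoxa6, Hoxa7, Hoxa10, Hoxa11, Hoxb2, Hoxb3, Hoxb4, Hoxb7, Hoxd4, Hoxd8, Hoxd9 and Hoxd10. Levels of different genes can be compared only per length. In LL2 WT, mean CPM per kilobase of the longest transcript was 9.6 for Hoxd8, 7.81 for Hoxd9, 7.51 for Hoxb7, 6.99 for Hoxd10 and 5.81 for Hoxa7, the 5 highest, followed by 3.1 for Hoxa11. The upper part of the order was thus held by groups 7 to 11 of 3 clusters. Hoxa4 was at 0.778 ± 0.0670 CPM and Hoxd3 at 0.960 ± 0.641 CPM in LL2 WT, and both passed 1 CPM only in means of other lines.

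**Figure D1:**
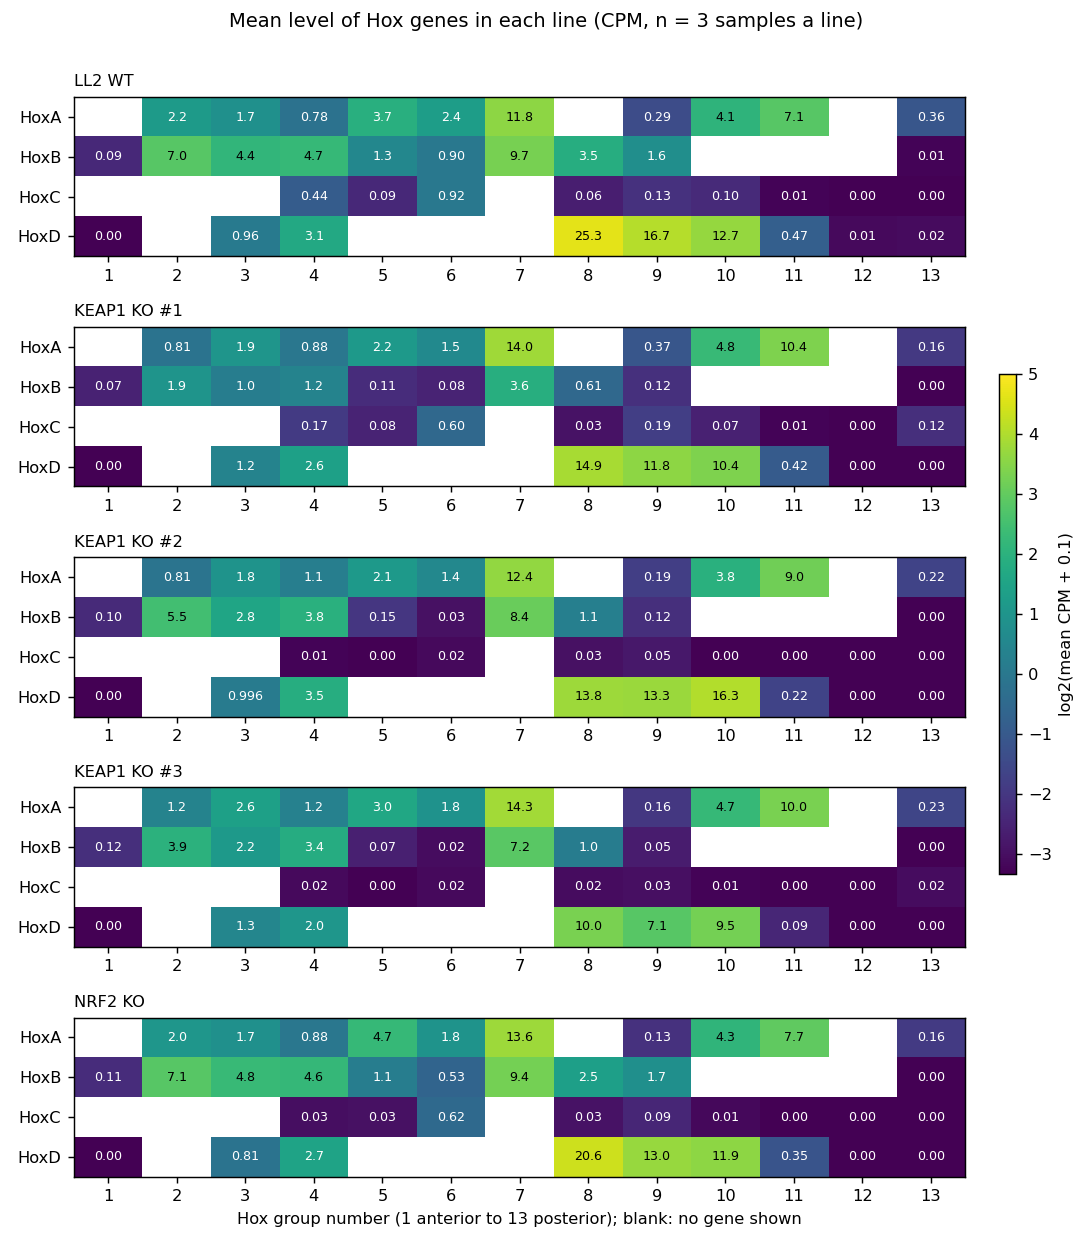
Mean level of Hox genes (number in each cell, CPM, n = 3 samples) by cluster (rows) and group number (columns) in the 5 lines, coloured on the log2(mean CPM + 0.1) scale. The HoxC row is dark in every line apart from Hoxc4 and Hoxc6, and the cells of Hoxb5, Hoxb6 and Hoxb9 are dark in the 3 KEAP1 KO lines but not in LL2 WT or NRF2 KO.

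The other members were at the edge of detection. Among the 15 that neither reached 1 CPM nor were called in a comparison, Hoxa13, a gene of distal limb and urogenital development, had the highest single value, 0.797 CPM in LL2 WT replicate 3. Hoxa9, a gene known from leukaemia, lay between 0.0222 and 0.593 CPM over all samples. Hoxc12 and Hoxd1 were at 0 in all 15 samples, and Hoxb13, Hoxc11, Hoxd12 and Hoxd13 stayed at or under 0.1 CPM throughout, which makes 6 genes without a level above that limit. At this depth an absence cannot be told from a low level. In all, 26 members entered the tests below, 11 of HoxA, 8 of HoxB, 1 of HoxC and 6 of HoxD, because their CPM summed to at least 3 over the 15 samples, and 13 did not.

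The summed levels of the clusters compared with LL2 WT in different ways, given here as a description. HoxA summed to 35.7 ± 1.29 CPM (SD, n = 3) in LL2 WT, 37.8 ± 0.442 in KEAP1 KO #1, 33.8 ± 0.471 in #2, 40.2 ± 0.670 in #3 and 38.4 ± 2.67 in NRF2 KO. HoxB summed to 33.2 ± 8.37 CPM in LL2 WT and to 8.70 ± 1.44, 22.1 ± 2.2, 17.99 ± 1.96 and 31.7 ± 7.05 in the same order. Every KEAP1 KO sample lay below every LL2 WT sample for HoxB, at 26.2%, 66.3% and 54.1% of the LL2 WT mean, while the NRF2 KO samples overlapped with LL2 WT. HoxC summed to 1.74 ± 0.40 CPM in LL2 WT, 1.27 ± 0.476 in KEAP1 KO #1, 0.0967 ± 0.0498 in #2, 0.108 ± 0.00445 in #3 and 0.814 ± 0.393 in NRF2 KO. HoxD summed to 59.3 ± 2.3 CPM in LL2 WT, 41.4 ± 2.04, 48.1 ± 2.61 and 29.9 ± 3.91 in the KEAP1 KO lines and 49.3 ± 4.23 in NRF2 KO, with every sample of the 4 knockout lines below the LL2 WT samples. No test was run on these sums. In bulk RNA, fewer cells with a transcript and less transcript per cell cannot be told apart.

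**Figure D2:**
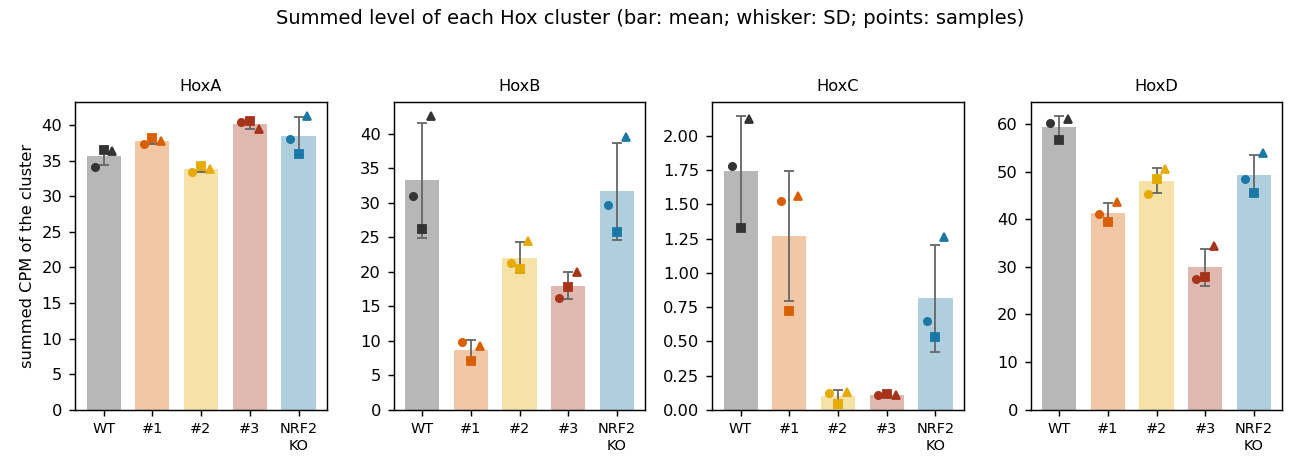
Summed CPM of the genes of each Hox cluster (vertical axis) in the 5 lines (horizontal axis), with bars for means, whiskers for SD and a point for each of the 3 samples. The HoxA bars lie between 33.8 and 40.2 CPM, and the HoxB bar of KEAP1 KO #1 stands at 8.70 CPM against 33.2 CPM in LL2 WT.

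Each clone was compared with LL2 WT by limma on log2(CPM + 0.1), and a gene was called where the Benjamini-Hochberg adjusted p over all 14652 tested genes was under 0.05 and the log2 fold change was beyond 1 in size. The 4 comparisons share the LL2 WT samples. In KEAP1 KO #1, 9 of the 26 tested Hox genes were called lower and 0 higher, where 3.99% of all tested genes were called lower and 4.55% higher. In KEAP1 KO #2 it was 5 lower and 0 higher, with 7.75% and 5.94% of all genes. In KEAP1 KO #3 it was 7 lower and 0 higher, with 7.34% and 6.09% of all genes. Without KEAP1 KO #3 replicate 3 that count was 11 lower, and without the third replicates of all lines the counts were 9, 5 and 8. In NRF2 KO 0 Hox genes were called in either direction, 1 had an unadjusted p under 0.05, and 0.375% of all genes were called lower and 0.0887% higher. The median log2 fold change of the 26 was -0.62, -0.34 and -0.52 in KEAP1 KO #1, #2 and #3 and -0.16 in NRF2 KO, beside 0.11, 0.03, 0.02 and 0.04 over all tested genes. In all, 13 members were called lower in at least 1 KEAP1 KO line: Hoxa2, Hoxb2 to Hoxb9, Hoxc6, Hoxd8, Hoxd9 and Hoxd11. The filter on low values asks for a mean of 0.2 CPM. Means were under this level for Hoxb5, Hoxb6 and Hoxb9 in every KEAP1 KO line, for Hoxc6 in #2 and #3 and for Hoxd11 in #3. These members passed the filter through other lines, which favoured lower calls, so the counts beside the shares of all genes are not free of the filter.

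Hoxb5, Hoxb6 and Hoxb9 were called lower in all 3 KEAP1 KO lines and were not called in NRF2 KO. Hoxb5 (chr11:96303336-96306121, GRCm38), a gene of lung and gut development, was at 1.40, 0.754 and 1.86 CPM in the parental LL2 WT samples, and at 0.736, 0.721 and 1.69 CPM in NRF2 KO. The samples of KEAP1 KO #1 were at 0.138, 0.114 and 0.0776 CPM, those of #2 at 0.114, 0.0573 and 0.269 CPM and those of #3 at 0, 0.0380 and 0.161 CPM. All 9 KEAP1 KO samples lay below all LL2 WT samples, and the log2 fold changes were -2.70 ± 0.49 (SE), -2.55 ± 0.49 and -3.15 ± 0.49 (limma adjusted p = 0.00170, 0.00161 and 0.000334). For NRF2 KO it was -0.34 ± 0.49 (limma adjusted p = 0.850).

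Hoxb6 (chr11:96292476-96301569), which lies next to Hoxb5 and is used in the embryonic thorax, was at 0.747, 0.706 and 1.25 CPM in the parental LL2 WT, and at 0.578, 0.463 and 0.563 CPM in NRF2 KO. KEAP1 KO #1 had 0.0586, 0 and 0.178 CPM, #2 0.0580, 0.0293 and 0 CPM and #3 0, 0.0596 and 0 CPM. All KEAP1 KO samples of Hoxb6 lay below every NRF2 KO sample, which in turn lay below every LL2 WT sample. Since every sample of KEAP1 KO #2 and #3 was at or under 0.1 CPM, Hoxb6 was at least 9.01-fold lower there. The fitted log2 fold changes were -2.57 ± 0.42, -2.94 ± 0.42 and -3.06 ± 0.42 in the 3 KEAP1 KO lines (limma adjusted p = 0.000962, 0.000212 and 0.000145) and -0.62 ± 0.42 in NRF2 KO (limma adjusted p = 0.654). With a pseudocount of 1 CPM, all 3 calls of Hoxb6 were lost, since the log2 fold changes shrank to -0.81, -0.87 and -0.89.

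Hoxb9 (chr11:96271457-96276595), a gene of the thoracic skeleton and the mammary gland, was at 2.48, 0.619 and 1.75 CPM in the parental LL2 WT, and at 1.09, 0.600 and 3.28 CPM in NRF2 KO. Hoxb9 had 0.140, 0.155 and 0.0688 CPM in KEAP1 KO #1, 0.108, 0.0677 and 0.174 in #2 and 0.0327, 0 and 0.132 in #3. LL2 WT and NRF2 KO spread widely and overlapped, and no KEAP1 KO sample reached them. The log2 fold changes were -2.79 ± 0.59, -2.83 ± 0.59 and -3.37 ± 0.59 (limma adjusted p = 0.00484, 0.00301 and 0.000876). Hoxb5, Hoxb6 and Hoxb9 averaged 0.108, 0.0427 and 0.0977 CPM over the 9 KEAP1 KO samples and passed the filter, which asks for a mean of 0.2 CPM, only through LL2 WT and NRF2 KO. They had to be lower in KEAP1 KO to be tested at their levels.

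**Figure D3:**
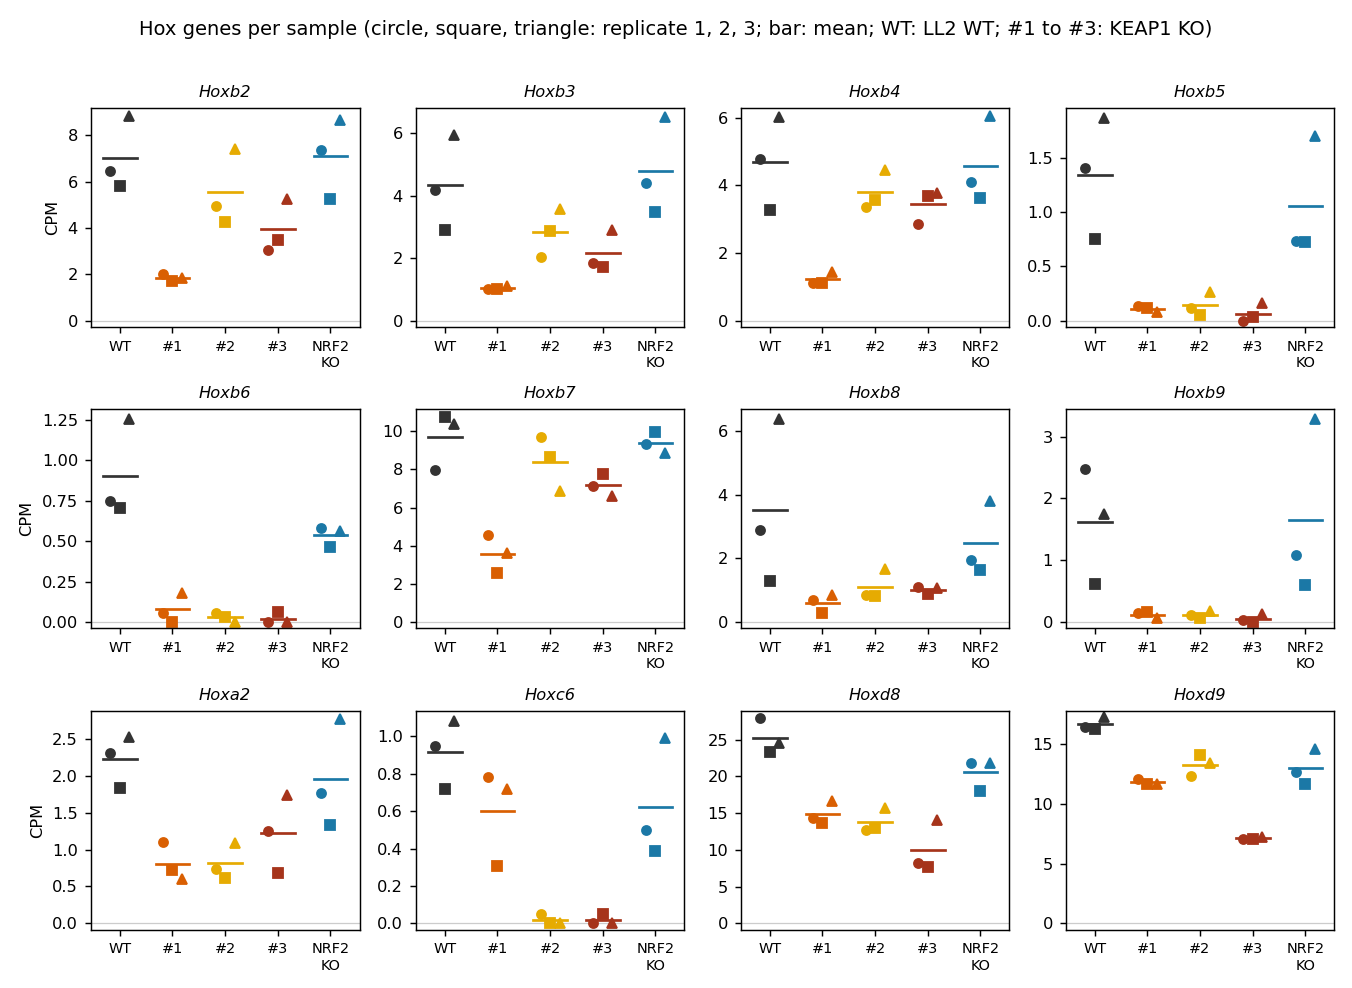
Level (CPM, vertical axis) of 12 called Hox genes in each of the 15 samples by line (horizontal axis), with circles, squares and triangles for replicates 1, 2 and 3 and a bar for the mean of each line. Hoxb5, Hoxb6 and Hoxb9 lie near 0 in all KEAP1 KO samples, Hoxc6 lies near 0 in KEAP1 KO #2 and #3, and Hoxb2, Hoxb3, Hoxb4 and Hoxb7 are lowest in KEAP1 KO #1.

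KEAP1 KO #1 was lower in every HoxB gene that could be tested. Beside the 3 above, Hoxb2, Hoxb3, Hoxb4, Hoxb7 and Hoxb8 were called lower against LL2 WT in KEAP1 KO #1 and in no other clone, which for Hoxb8 depended on the fit. Hoxb2 (chr11:96350525-96354012), a hindbrain gene, was at 6.46, 5.81 and 8.81 CPM in LL2 WT, 2.01, 1.71 and 1.86 in KEAP1 KO #1, 4.93, 4.24 and 7.42 in #2, 3.07, 3.49 and 5.26 in #3 and 7.37, 5.27 and 8.64 in NRF2 KO. Hoxb4 (chr11:96318267-96321638), known for its effect on blood stem cell self-renewal, was at 4.78, 3.29 and 6.03 CPM in LL2 WT, 1.13, 1.11 and 1.43 in KEAP1 KO #1, 3.36, 3.58 and 4.46 in #2, 2.87, 3.70 and 3.78 in #3 and 4.09, 3.62 and 6.04 in NRF2 KO. Hoxb7 (chr11:96286623-96290162) was at 7.98, 10.7 and 10.39 CPM in LL2 WT, 4.55, 2.58 and 3.61 in KEAP1 KO #1, 9.67, 8.63 and 6.85 in #2, 7.14, 7.76 and 6.59 in #3 and 9.33, 9.96 and 8.85 in NRF2 KO. For all of them, the KEAP1 KO #1 samples lay below those of every other line. Their log2 fold changes against LL2 WT in KEAP1 KO #1 were -1.84 ± 0.26 for Hoxb2, -1.82 ± 0.25 for Hoxb4 and -1.44 ± 0.20 for Hoxb7 (limma adjusted p = 0.000357, 0.000251 and 0.000283). In KEAP1 KO #2 and #3 the same genes had log2 fold changes of -0.36 and -0.83, -0.27 and -0.4, and -0.21 and -0.42. Hoxb2 was called lower in #3 without its replicate 3 (-1.06).

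Hoxb3 (chr11:96323326-96347930), a gene of the hindbrain and pharyngeal region, was at 4.20, 2.91 and 5.95 CPM in LL2 WT, 1.01, 1.01 and 1.11 in KEAP1 KO #1, 2.05, 2.87 and 3.59 in #2, 1.86, 1.73 and 2.90 in #3 and 4.41, 3.49 and 6.53 in NRF2 KO. Its log2 fold changes were -1.91 ± 0.31, -0.58 ± 0.31 and -0.95 ± 0.31 (limma adjusted p = 0.000846, 0.174 and 0.0319), so that in KEAP1 KO #3 it fell short of the call by its size alone, and it was called there without LL2 WT replicate 2 (-1.21) or KEAP1 KO #3 replicate 3 (-1.17). Of the 31-base words of Hoxb3, 52.1% also occur in its antisense gene Hoxb3os, and of those of Hoxb2 26.5%. Whether the counting used the strand is not stated, so reads of Hoxb3 and Hoxb2 cannot be told from those of Hoxb3os.

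Hoxb8 (chr11:96281905-96285315), a gene of myeloid progenitors and the trunk, spread widely in LL2 WT, at 2.88, 1.29 and 6.38 CPM. KEAP1 KO #1 had 0.686, 0.280 and 0.857 CPM of it, with 0.865, 0.810 and 1.66 in #2, 1.09, 0.893 and 1.08 in #3 and 1.96, 1.65 and 3.81 in NRF2 KO. The lowest LL2 WT sample lay above all samples of KEAP1 KO #1 and #3 but not above all of #2. The log2 fold changes were -2.19 ± 0.52, -1.37 ± 0.52 and -1.42 ± 0.52 (limma adjusted p = 0.00945, 0.0608 and 0.0541). The call of Hoxb8 in KEAP1 KO #1 was lost without KEAP1 KO #1 replicate 2 (limma adjusted p = 0.0505) and with only the 2 lines fitted (0.0777). In turn Hoxb8 was called in KEAP1 KO #2 and #3 without LL2 WT replicate 2 (log2 fold change -1.93 and -1.97), and in KEAP1 KO #2 without its replicate 3 (-1.68). Both clones were also called for Hoxb8 with the replicate number as a block (limma adjusted p = 0.00361 in #2 and 0.00295 in #3), with the third replicates as a factor, and with median ratio (0.0477 and 0.0428) or quantile scaling, and #3 with a pseudocount of 0.5 CPM.

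**Figure D4:**
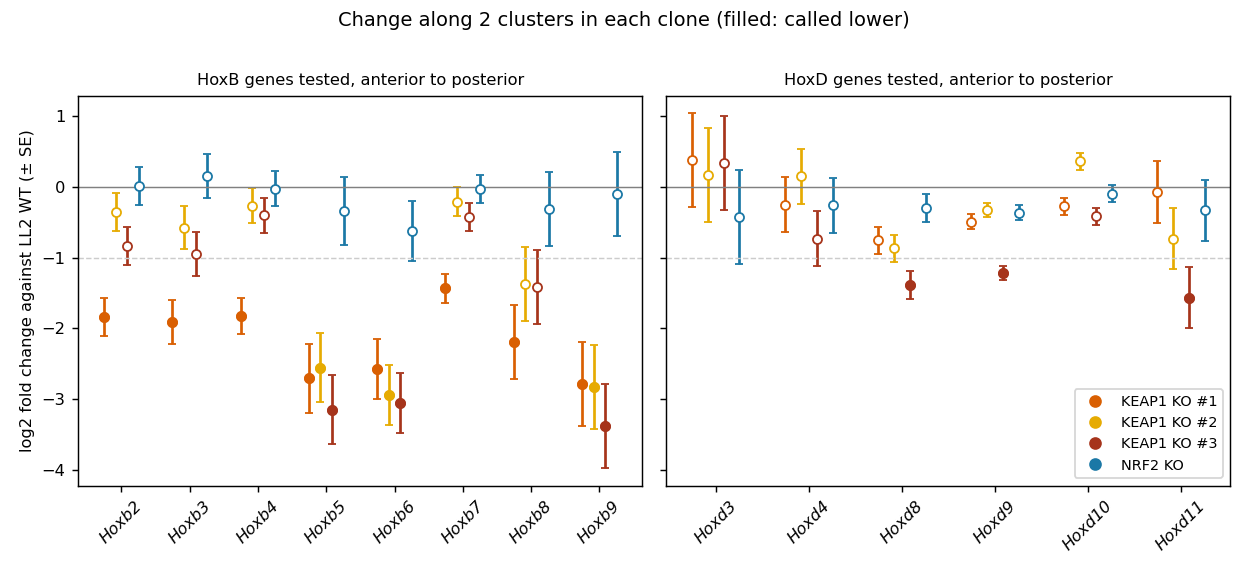
Log2 fold change against LL2 WT (vertical axis, points with SE from limma) of the 8 tested HoxB genes and the 6 tested HoxD genes, ordered from anterior to posterior (horizontal axis), for the 4 knockout lines. Filled points were called lower. KEAP1 KO #1 has 8 filled points in HoxB and 0 in HoxD, and KEAP1 KO #3 has 3 in each cluster.

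In HoxC, 1 gene was high enough to be tested, and it was called lower in KEAP1 KO #2 and #3 but not in #1. This gene, Hoxc6 (chr15:102998257-103011881), a gene of the thoracic region and its ribs, was at 0.948, 0.719 and 1.08 CPM in the parental LL2 WT, and at 0.781, 0.307 and 0.720 CPM in KEAP1 KO #1. In KEAP1 KO #2 it was at 0.0478, 0 and 0 CPM, in #3 at 0, 0.0481 and 0 CPM and in NRF2 KO at 0.497, 0.386 and 0.989 CPM. All samples of KEAP1 KO #2 and #3 were at or under 0.1 CPM, at least 9.16-fold lower than LL2 WT, while the other lines held the transcript in every sample. The fitted log2 fold changes were -3.14 ± 0.41 in KEAP1 KO #2 and -3.14 ± 0.41 in #3 (limma adjusted p = 0.000103 and 9.63e-05), against -0.60 ± 0.41 in #1 and -0.56 ± 0.41 in NRF2 KO (limma adjusted p = 0.324 and 0.682). With a pseudocount of 1 CPM both calls of Hoxc6 were lost, at log2 fold changes of -0.91 and -0.91. Hoxc6 averaged 0.0159 and 0.016 CPM in KEAP1 KO #2 and #3 and passed the filter only through the other 3 lines, so that it had to be lower in these clones to be tested, in their contrasts with #1 as well. Hoxc4 (chr15:103018934-103036852), the most anterior gene of the cluster, was too low to be tested. It was at 0.539, 0.352 and 0.423 CPM in LL2 WT, 0.232, 0.0542 and 0.221 in KEAP1 KO #1, 0, 0 and 0.0155 in #2, 0, 0 and 0.0509 in #3 and 0.0310, 0.0240 and 0.0206 in NRF2 KO, so that every knockout sample lay below the LL2 WT samples.

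KEAP1 KO #3 was called lower in 3 HoxD genes, Hoxd8, Hoxd9 and Hoxd11, which act along the trunk and in the limb. Hoxd8 (chr2:74704615-74707933) was at 28.0, 23.3 and 24.6 CPM in LL2 WT, 14.4, 13.7 and 16.7 in KEAP1 KO #1, 12.7, 12.99 and 15.7 in #2, 8.22, 7.68 and 14.04 in #3 and 21.9, 18.02 and 21.8 in NRF2 KO. All 12 knockout samples lay below the LL2 WT samples of Hoxd8, and the third replicate of KEAP1 KO #3 lay apart from the other two. Its log2 fold changes were -0.76 ± 0.20, -0.87 ± 0.20 and -1.38 ± 0.20 in the KEAP1 KO lines (limma adjusted p = 0.0142, 0.00458 and 0.000173) and -0.30 ± 0.20 in NRF2 KO (limma adjusted p = 0.638). Hoxd9 (chr2:74697727-74700208) was at 16.5, 16.3 and 17.3 CPM in LL2 WT, 12.11, 11.7 and 11.6 in KEAP1 KO #1, 12.4, 14.1 and 13.4 in #2, 7.05, 7.06 and 7.22 in #3 and 12.7, 11.6 and 14.6 in NRF2 KO. The replicates of Hoxd9 lay close together, with KEAP1 KO #3 below all other samples, and the log2 fold change there was -1.22 ± 0.10 (limma adjusted p = 2.41e-06), against -0.50, -0.33 and -0.37 in KEAP1 KO #1, KEAP1 KO #2 and NRF2 KO. Hoxd11 (chr2:74679557-74687016), a gene of the forearm and kidney, was at 0.315, 0.302 and 0.797 CPM in LL2 WT, 0.290, 0.379 and 0.585 in KEAP1 KO #1, 0.183, 0.228 and 0.252 in #2, 0.0427, 0.0525 and 0.166 in #3 and 0.233, 0.238 and 0.568 in NRF2 KO. It was called lower in KEAP1 KO #3 (log2 fold change -1.56 ± 0.43, limma adjusted p = 0.0148). The call of Hoxd11 was lost without LL2 WT replicate 3 (limma adjusted p = 0.0632), KEAP1 KO #3 replicate 1 (0.0563) or KEAP1 KO #3 replicate 2 (0.0544), with only the 2 lines fitted (0.0678), and with a pseudocount of 0.5 CPM, where the log2 fold change was -0.70. Its mean of 0.087 CPM in KEAP1 KO #3 is under the 0.2 CPM of the filter, which it passed through other lines, and 10.31% of its 31-base words occur in the overlapping gene Gm28309.

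The remaining HoxD genes that reached 1 CPM were not called against LL2 WT. Hoxd10 was at 12.7 ± 1.25 CPM in LL2 WT, 10.43 ± 0.415 in KEAP1 KO #1, 16.3 ± 1.22 in #2, 9.48 ± 0.949 in #3 and 11.9 ± 1.15 in NRF2 KO (SD, n = 3). KEAP1 KO #2 was above LL2 WT with a log2 fold change of 0.36 ± 0.12 and #3 below it with -0.42 ± 0.12 (limma adjusted p = 0.0364 and 0.0178), both under the size asked for. Hoxd4 averaged 3.14 ± 0.804 CPM in the parental LL2 WT, and 2.57 ± 0.319, 3.54 ± 1.25, 1.97 ± 1.02 and 2.72 ± 1.33 in the knockout lines, and Hoxd3 averaged 1.22 ± 0.611, 0.996 ± 0.342, 1.31 ± 0.966 and 0.806 ± 0.814 CPM there. Both are uncertain, since 36.9% of the 31-base words of Hoxd4 and 52.6% of those of Hoxd3 occur in the overlapping gene Gm28230. Hoxd4 was called lower in KEAP1 KO #3 without KEAP1 KO #3 replicate 3 (-1.10).

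Of the 11 tested HoxA genes, 1 was called against LL2 WT. This gene, Hoxa2 (chr6:52162417-52164831), which patterns the hindbrain and the skeleton of the jaw and middle ear, was at 2.31, 1.83 and 2.53 CPM in LL2 WT, 1.1, 0.718 and 0.597 in KEAP1 KO #1, 0.736, 0.613 and 1.09 in #2, 1.25, 0.689 and 1.75 in #3 and 1.77, 1.33 and 2.78 in NRF2 KO. Every KEAP1 KO sample lay below the LL2 WT samples, and NRF2 KO overlapped with them. The log2 fold changes of Hoxa2 were -1.39 ± 0.36 and -1.37 ± 0.36 in KEAP1 KO #1 and #2, which were called, and -0.88 ± 0.36 in #3, which was not (limma adjusted p = 0.0148, 0.0116 and 0.0802). The call in KEAP1 KO #1 was lost without LL2 WT replicate 3 (limma adjusted p = 0.0503), KEAP1 KO #1 replicate 2 (0.0544) or KEAP1 KO #1 replicate 3 (0.0565), and that in KEAP1 KO #2 without its replicate 2 (0.0521). Without the third replicates of all lines, Hoxa2 was called lower in KEAP1 KO #3 as well (-1.07), and likewise without KEAP1 KO #3 replicate 3 alone (-1.16).

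The other HoxA genes at 1 CPM or more were not called in any clone. Hoxa7, of whose 31-base words 19.4% occur in the antisense gene Hoxaas3, averaged 11.8 ± 1.96 CPM in the parental LL2 WT, and 13.96 ± 0.257, 12.4 ± 1.18, 14.3 ± 1.1 and 13.6 ± 0.224 in KEAP1 KO #1, #2, #3 and NRF2 KO. Hoxa10, a gene of the uterus and of blood cells, averaged 4.14 ± 0.338, 4.80 ± 0.420, 3.76 ± 0.618, 4.71 ± 0.0173 and 4.26 ± 0.430 CPM in the same order of 5 lines. Hoxa11, a gene of the forearm and the kidney, averaged 7.09 ± 0.682, 10.36 ± 1.66, 8.97 ± 1.43, 9.99 ± 1.27 and 7.66 ± 0.417 CPM. Hoxa11 was above LL2 WT by log2 fold changes of 0.53 ± 0.16 in KEAP1 KO #1 and 0.48 ± 0.16 in #3 (limma adjusted p = 0.0283 and 0.0335), a smaller size than a call asks for, and 33.9% of its 31-base words occur in the antisense gene Hoxa11os. Hoxa5, which is required for lung and airway development, averaged 3.68 ± 0.653, 2.16 ± 0.171, 2.09 ± 0.543, 2.99 ± 0.416 and 4.70 ± 0.814 CPM, a log2 fold change of -0.73 ± 0.21 for KEAP1 KO #1 and -0.80 ± 0.21 for #2 (limma adjusted p = 0.0271 and 0.0128). Hoxa6 averaged 2.36 ± 0.431, 1.46 ± 0.162, 1.38 ± 0.341, 1.80 ± 0.297 and 1.84 ± 0.765 CPM, and Hoxa3 and Hoxa4 stayed between 0.54 and 3.14 CPM in every sample.

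In NRF2 KO, against LL2 WT, the 26 log2 fold changes ran from -0.72 to 0.34, with 18 below 0. The one with an unadjusted p under 0.05 was Hoxd9, at -0.37 ± 0.10 (limma adjusted p = 0.175). The standard errors there were 0.49 for Hoxb5 and 0.59 for Hoxb9, so that a change of a similar size in these genes was not detectable.

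Promoters are shown for 3 members, as the 250 bases before the start of transcription from RefSeq (GRCm38.p6), because KEAP1 loss leaves NRF2 active and NRF2 binds with its partners at the antioxidant response element. Its core was searched as TGACNNNGC on both strands over 300 bases (250 before to 50 after the start). Hoxb4 (chr11:96318017-96318266, plus strand) and Hoxb8 (chr11:96281655-96281904, plus strand) were called lower in KEAP1 KO #1 and held no match. Hoxa6 (chr6:52208673-52208922, minus strand), which was not called in any clone, held 1 match, on the strand opposite to the gene, given in capitals.
Hoxb4: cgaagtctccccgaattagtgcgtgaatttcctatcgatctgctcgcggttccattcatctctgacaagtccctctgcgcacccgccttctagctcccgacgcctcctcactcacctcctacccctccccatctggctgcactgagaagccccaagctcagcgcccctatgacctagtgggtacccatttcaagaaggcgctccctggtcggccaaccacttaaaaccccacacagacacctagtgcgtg
Hoxb8: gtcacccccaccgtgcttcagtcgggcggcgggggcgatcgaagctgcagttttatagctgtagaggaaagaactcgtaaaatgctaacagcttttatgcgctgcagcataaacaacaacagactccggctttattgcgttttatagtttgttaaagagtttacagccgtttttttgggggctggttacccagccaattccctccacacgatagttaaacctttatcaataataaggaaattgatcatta
Hoxa6: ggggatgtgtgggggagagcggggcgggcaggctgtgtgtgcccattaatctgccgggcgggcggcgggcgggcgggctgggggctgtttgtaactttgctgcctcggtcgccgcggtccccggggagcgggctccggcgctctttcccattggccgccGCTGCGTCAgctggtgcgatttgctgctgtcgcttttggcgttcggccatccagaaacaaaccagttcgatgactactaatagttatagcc
Of the 22 Hox genes with a promoter in the reference, 2 held the core, Hoxa6 and Hoxd10, where 12.4% of 32851 promoters held it. Among the members called lower, Hoxa2, Hoxb4, Hoxb8, Hoxd8, Hoxd9 and Hoxd11 could be searched and held none. The others called lower, Hoxb2, Hoxb3, Hoxb5, Hoxb6, Hoxb7, Hoxb9 and Hoxc6, had no promoter in the reference and were not searched. At a share of 12.4%, so few promoters cannot show a lack of the core, and binding of NRF2 was not tested.

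Whether the clones differed from each other was tested by contrasts of the same fit. Between KEAP1 KO #2 and #1, 4 Hox genes were called higher in #2 and 1 lower, where 1.79% and 2.79% of all genes were. The 4 were Hoxb2, Hoxb3, Hoxb4 and Hoxb7, with log2 differences of 1.49 ± 0.26, 1.33 ± 0.31, 1.56 ± 0.25 and 1.23 ± 0.20, and the 1 was Hoxc6. Between KEAP1 KO #3 and #1, Hoxb2, Hoxb4 and Hoxb7 were called higher and Hoxc6 and Hoxd11 lower, 3 and 2 genes, where 2.03% and 2.60% of all genes were. The 3 higher genes became 2 without the third replicates of all lines, since Hoxb2, at a log2 difference of 1.01, lay next to the limit. Hoxb8 did not pass for either pair, with log2 differences of 0.81 ± 0.52 and 0.76 ± 0.52 (limma adjusted p = 0.389 and 0.403), so that its call in KEAP1 KO #1 alone does not set that clone apart. Between KEAP1 KO #3 and #2, 0 Hox genes were called in either direction by limma, while 6 had an unadjusted p under 0.05, and 0.259% and 0.225% of all genes were called higher and lower. Hoxd9 and Hoxd10 came nearest, lower in #3 by -0.89 ± 0.10 and -0.78 ± 0.12 on the log2 scale (limma adjusted p = 0.000689 and 0.00708), short of the size asked for. Against the mean of the 3 KEAP1 KO lines, NRF2 KO was called higher in 7 Hox genes and lower in 0, where 4.75% and 5.19% of all genes were. These were Hoxb2, Hoxb3, Hoxb5, Hoxb6, Hoxb8, Hoxb9 and Hoxc6. Of them Hoxb5, Hoxb6 and Hoxb9 were tested only because LL2 WT and NRF2 KO were high, and for Hoxb2 and Hoxb3 the KEAP1 KO #1 mean (1.86 and 1.04 CPM) was far below those of #2 (5.53 and 2.84 CPM) and #3 (3.94 and 2.16 CPM).

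Genes known to act with or upstream of Hox genes were read from fixed lists. The TALE genes of the Pbx, Meis and Pknox families code for homeodomain partners that bind DNA together with Hox proteins. All 9 reached 1 CPM in some line, and 0 were called higher in any line. The lower calls numbered 0, 2, 1 and 0 in KEAP1 KO #1, #2, #3 and NRF2 KO, with median log2 fold changes of -0.12, -0.43, -0.49 and -0.09. Of all tested genes, 3.99%, 7.75%, 7.34% and 0.375% were called lower in the same order. Pknox2 was at 1.42, 1.25 and 2.64 CPM in LL2 WT, 3.54, 1.02 and 2.09 in KEAP1 KO #1, 0.0420, 0.0334 and 0.140 in #2, 0.0485, 0.0125 and 0.0871 in #3 and 2.76, 2.38 and 3.26 in NRF2 KO. It fell in KEAP1 KO #2 and #3 (-3.43 ± 0.43 and -3.61 ± 0.43, limma adjusted p = 7.28e-05 and 4.36e-05), the lines in which Hoxc6 fell. A link between Pknox2 and Hoxc6 was not tested. All Pknox2 samples of KEAP1 KO #2 and #3 were under the 0.2 CPM of the filter, which the gene passed through the other lines.

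Of the 5 Cdx and Evx genes, 1, Cdx2, was tested, and it passed the filter only through KEAP1 KO #1. Its values in the other lines add up to under 3 CPM, so that it had to be higher in KEAP1 KO #1 to be tested. Cdx2, which switches on Hox genes of the embryonic trunk and tail and marks intestinal epithelium, was at 0.637, 0.752 and 0.735 CPM in the parental LL2 WT, and at 6.12, 6.48 and 5.39 CPM in KEAP1 KO #1. All KEAP1 KO #2 samples were at 0 CPM, those of #3 were at 0.131, 0.208 and 0.147 CPM and those of NRF2 KO at 0, 0.0311 and 0.0711 CPM. KEAP1 KO #1 lay above all LL2 WT samples of Cdx2, and the other lines lay below them. The log2 fold changes against LL2 WT were 2.91 ± 0.28, -3.01 ± 0.28, -1.63 ± 0.28 and -2.62 ± 0.28 (limma adjusted p = 1.78e-05, 6.11e-06, 0.000780 and 0.000565), and all 4 were called. Of the 8 tested HoxB genes, 8, 3, 3 and 0 were called lower in KEAP1 KO #1, #2, #3 and NRF2 KO. Over all tested genes the shares in this order were 3.99%, 7.75%, 7.34% and 0.375%. The 3 in KEAP1 KO #2 and #3 were Hoxb5, Hoxb6 and Hoxb9, which passed the filter only through LL2 WT and NRF2 KO. Whether the level of Cdx2 has a part in these HoxB differences was not tested. With a pseudocount of 1 CPM the calls of Cdx2 in KEAP1 KO #2, #3 and NRF2 KO were lost, in #3 also with 0.5 CPM, and in NRF2 KO also with the 2 lines fitted alone.

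**Figure D5:**
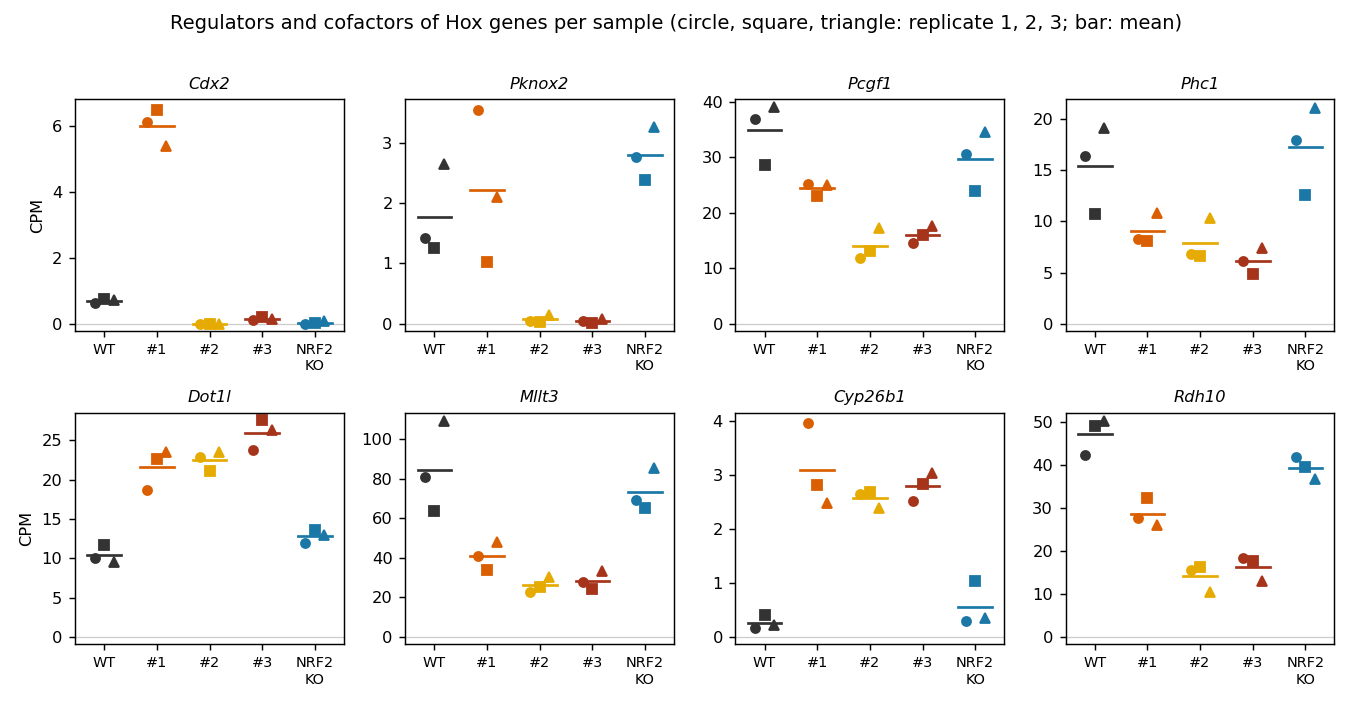
Level (CPM, vertical axis) of 8 genes that act with or upstream of Hox genes in each of the 15 samples by line (horizontal axis), with circles, squares and triangles for replicates 1, 2 and 3 and bars for means. Cdx2 stands at 5.39 to 6.48 CPM in KEAP1 KO #1 and under 1 CPM elsewhere, and Pknox2 lies near 0 in KEAP1 KO #2 and #3.

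Polycomb proteins keep Hox clusters silent, and Trithorax proteins and methylation of histone H3 at lysine K79 go with their active state. All 23 Polycomb genes were tested, and 0, 2, 3 and 0 were called lower and 0 higher in KEAP1 KO #1, #2, #3 and NRF2 KO, with median log2 fold changes of -0.01, -0.19, -0.22 and 0.03. Over all tested genes the shares in this order were 3.99%, 7.75%, 7.34% and 0.375% lower and 4.55%, 5.94%, 6.09% and 0.0887% higher. Without the third replicates of all lines Phf19 was called lower as well in KEAP1 KO #2 and #3 (-1.06 and -1.03) and Cbx7 in #3 (-1.25). Pcgf1, a subunit of a Polycomb complex that ubiquitinates histone H2A, fell in KEAP1 KO #2 and #3 (-1.3 ± 0.17 and -1.11 ± 0.17, limma adjusted p = 8.95e-05 and 0.000287). Phc1 and Cbx8 fell in KEAP1 KO #3 (-1.29 ± 0.26 and -1.22 ± 0.21, limma adjusted p = 0.00232 and 0.000883). Of the 14 Trithorax and K79 methylation genes, 1 was called higher and 1 lower in each KEAP1 KO line and 0 in NRF2 KO, with medians of 0.20, 0.05, -0.05 and 0.09. The higher one was Dot1l, the methyltransferase for that residue, at 10.0, 11.6 and 9.47 CPM in the parental LL2 WT, and 18.7, 22.6 and 23.5 in KEAP1 KO #1, 22.8, 21.1 and 23.5 in #2 and 23.8, 27.6 and 26.3 in #3 (1.05 ± 0.12, 1.11 ± 0.12 and 1.31 ± 0.12, limma adjusted p = 5.81e-05, 1.76e-05 and 3.85e-06). For KEAP1 KO #1 its size lay next to the limit, and the call was lost without LL2 WT replicate 3 (0.98), KEAP1 KO #1 replicate 3 (0.98) or the third replicates of all lines (0.92), and with median ratio scaling (0.94) or a pseudocount of 1 CPM. The lower one was Mllt3, which codes for a partner of DOT1L, at 80.8, 63.8 and 109 CPM in the parental LL2 WT, and 40.8, 33.9 and 47.9 in KEAP1 KO #1, 22.8, 25.1 and 30.2 in #2 and 27.9, 24.3 and 33.3 in #3 (-1.03 ± 0.20, -1.67 ± 0.20 and -1.54 ± 0.20, limma adjusted p = 0.00270, 4.49e-05 and 8.13e-05). In KEAP1 KO #1 the call of Mllt3 was lost without LL2 WT replicate 3 (-0.82), KEAP1 KO #1 replicate 2 (-0.90) or the third replicates of all lines (-0.95).

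Retinoic acid switches on the anterior ends of Hox clusters in the embryo. Of the 17 genes listed for its synthesis, breakdown and receptors, 12 were tested. In KEAP1 KO #1, #2, #3 and NRF2 KO, 3, 3, 3 and 0 were called higher and 0, 2, 2 and 1 lower, with median log2 fold changes of 0.24, 0.04, -0.04 and -0.10. Over all tested genes 4.55%, 5.94%, 6.09% and 0.0887% were called higher and 3.99%, 7.75%, 7.34% and 0.375% lower. Cyp26b1, which codes for an enzyme that breaks retinoic acid down, was at 0.168, 0.408 and 0.216 CPM in the parental LL2 WT, and 3.96, 2.81 and 2.48 in KEAP1 KO #1, 2.64, 2.68 and 2.39 in #2 and 2.52, 2.84 and 3.05 in #3 (3.16 ± 0.37, 2.93 ± 0.37 and 3.05 ± 0.37, limma adjusted p = 7.68e-05, 7.25e-05 and 4.72e-05). Rdh10, whose enzyme starts the synthesis from retinol, was at 42.4, 49.2 and 50.3 CPM in the parental LL2 WT, and 15.7, 16.4 and 10.5 in KEAP1 KO #2 and 18.5, 17.8 and 12.98 in #3 (-1.75 ± 0.18 and -1.53 ± 0.18, limma adjusted p = 1.14e-05 and 2.98e-05). The other higher calls in each KEAP1 KO line were Aldh1a1 and Aldh1a3, whose enzymes make retinoic acid from retinal, and Stra6, a retinol carrier of the cell membrane, was called lower in KEAP1 KO #3 and NRF2 KO. These were named after their values were seen, outside the rule for named genes, and Aldh1a1 and Stra6 averaged under 1 CPM in every line. The calls of Aldh1a3, and that of Stra6 in NRF2 KO, were lost without LL2 WT replicate 3 and without the third replicates of all lines, and without the latter that of Aldh1a1 in KEAP1 KO #2 as well (limma adjusted p = 0.0723). Dhrs3, whose enzyme reverses the step of Rdh10, was called lower in KEAP1 KO #2 (-2.43 ± 0.84, limma adjusted p = 0.0416), a call that was lost without LL2 WT replicate 1 (0.0887) or 3 (0.164) or KEAP1 KO #2 replicate 1 (0.169) or 2 (0.114), with no filter, with no trend and with only the 2 lines fitted (0.0978). In KEAP1 KO #3 Dhrs3 was called lower without LL2 WT replicate 2 (-2.67) or without the third replicates of all lines (-1.90).

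Among the listed protein-coding neighbours of the clusters no fall passed the test with all samples. Of 17 listed, at 28.9 to 776 kb from a cluster, 14 were tested and 0 were called by limma in any of the 4 comparisons. Of all tested genes, at most 7.75% were called lower and 6.09% higher in a comparison. The median log2 fold changes of the 14 neighbours were 0.04, 0.05, 0.00 and 0.01. Calcoco1, 199 kb from HoxC, had the lowest log2 fold changes, -1.28 ± 0.50, -1.12 ± 0.50 and -1.03 ± 0.50 (limma adjusted p = 0.0810, 0.102 and 0.134), and without the third replicates of all lines it was called lower in all 3 KEAP1 KO lines (-1.13, -1.001 and -1.02, limma adjusted p = 0.0178, 0.0188 and 0.0171). Around HoxB, Snx11 and Cbx1 were tested, at 399 and 421 kb, and Skap1, Ttll6 and Calcoco2, which lie nearer, were too low. The list did not hold every neighbour, and 3 unlisted ones near HoxB, chosen after their values were seen, did not go one way. Copz2, 481614 bases away, averaged 20.2 CPM in LL2 WT, 16.0 CPM in NRF2 KO and 10.9, 3.09 and 2.49 CPM in the KEAP1 KO lines. Phospho1, 362176 bases away, averaged 9.12 CPM in LL2 WT, 7.58 CPM in NRF2 KO and 61.3, 42.7 and 39.4 CPM in the KEAP1 KO lines, and Igf2bp1, at 188376 bases, 7.90 CPM in LL2 WT, 8.80 CPM in NRF2 KO and 8.07, 27.7 and 17.6 CPM in the KEAP1 KO lines. The 17 listed non-coding genes of the clusters, Hoxb3os and Hoxa11os among them, had no entry among the gene symbols and could not be analysed.

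Among the cell type markers, only the summed level of mesenchyme set all KEAP1 KO samples apart from both LL2 WT and NRF2 KO. For NRF2 KO, the sum for lung epithelium lay below every LL2 WT sample, and that for endothelium lay above every one. These sums are given as a description. Of all tested genes, 3.99%, 7.75%, 7.34% and 0.375% were called lower in KEAP1 KO #1, #2, #3 and NRF2 KO, and 4.55%, 5.94%, 6.09% and 0.0887% higher. Of 7 mesenchyme markers, 1, 5, 4 and 0 were called lower and 0 higher in KEAP1 KO #1, #2, #3 and NRF2 KO, and their summed level was 3603 to 5851 CPM in LL2 WT, 1749 to 2207, 1589 to 1973 and 1658 to 2136 CPM in the KEAP1 KO lines and 3280 to 4621 CPM in NRF2 KO. Vim averaged 4289.3 CPM in the parental LL2 WT, and 1853.1, 1680.6 and 1755.2 CPM in KEAP1 KO #1, #2 and #3. The mesenchyme sum thus came mostly from Vim. In KEAP1 KO #1 Vim was the only mesenchyme marker called, and that call was lost with quantile normalization (-0.98). Cdh2 separated KEAP1 KO #2, at 0.221, 0.383 and 0.450 CPM, from all other lines, whose lowest sample was at 6.15 CPM. Fn1, Col1a1 and Col1a2 were the other lower calls, in KEAP1 KO #2 and #3, and Col1a1 and Col1a2 averaged under 1 CPM in every line. The calls of Col1a1 were lost without LL2 WT replicate 1 or 3 or the third replicates of all lines. Without the latter Fn1 was called lower in KEAP1 KO #1 too (-1.06). Of 13 markers of lung epithelium, 6 were tested, and 1 was called higher and 1 lower in each KEAP1 KO line and 0 in NRF2 KO. Their summed level was 613 to 688 CPM in LL2 WT, 320 to 465, 572 to 630.3 and 557 to 661 CPM in the KEAP1 KO lines and 402 to 565 CPM in NRF2 KO. The higher one was Sftpb (1.66, 1.92 and 2.54 on the log2 scale), which averaged under 1 CPM in every line. Its call in KEAP1 KO #1 was lost without LL2 WT replicate 1 or KEAP1 KO #1 replicate 2 or 3 (limma adjusted p = 0.0615, 0.0686 and 0.0577). The lower one was Napsa, at 0.773, 1.38 and 2.18 CPM in LL2 WT, at most 0.612 CPM in any KEAP1 KO sample and 0.245, 0.329 and 0.377 CPM in NRF2 KO. In KEAP1 KO #1 the call of Napsa was lost without LL2 WT replicate 3 (limma adjusted p = 0.0854) or KEAP1 KO #1 replicate 2 (0.0994), without the third replicates of all lines (0.0530) and with only the 2 lines fitted (0.0907). The endothelial gene Cdh5 was at 0, 0.0233 and 0.0449 CPM in LL2 WT and rose in KEAP1 KO #2 (0.766, 0.791 and 0.901 CPM) and #3 (1.54, 0.971 and 1.23 CPM), and the 3 endothelial markers summed to 2.47 to 3.68 CPM in LL2 WT, to 2.79 to 4.84 CPM in KEAP1 KO #1, to 5.12 to 6.65 and 5.25 to 6.02 CPM in #2 and #3 and to 4.07 to 7.48 CPM in NRF2 KO. The part of these shifts in the Hox results was not tested.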

How the data were processed

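RNA of 15 samples was sequenced as poly(A) libraries (KAPA mRNA Hyperprep, 50 bp paired reads). The authors converted base calls with bcl2fastq 1.9.0, assigned reads to mouse cDNA with kallisto and deposited CPM per gene symbol. The paper's methods name GRCm38.p6 as the build and the submitters' processing notes name GRCm39. The deposited CPM are fractional and not whole reads. Coordinates here are from GENCODE M21 (GRCm38). One entry without a symbol (0.0214% to 0.0491% of a sample) was left out.

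From these values log2(CPM + 0.1) was fitted for the 14652 of 35880 genes whose 15 values added up to 3 CPM or more, with limma 3.58.1 in R 4.3.3, a mean per line and eBayes with a trend, and tested on simulated data. A fold change on this scale understates that of low genes. No 2 samples held the same values. Members with at least 1 CPM on average in a line or with a call are named with their values. Of each list, called genes at 1 CPM or more are named (the 3 with the largest change). The members and lists were chosen with earlier results of these data known. Alternatives were the pseudocount, filter, scaling, samples left out, replicate factors and trend. Some items are not reported here. 22 of 39 genes had a RefSeq promoter.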

Additional observations from a re-analysis of the deposited data

Results flagged for a closer look

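The results below stand out because the change of a gene against LL2 WT differed between clones, by a test of the difference itself (contrasts of the same limma fit, adjusted over all tested genes). The log2 difference of KEAP1 KO #2 from #1 was 1.49 for Hoxb2, 1.33 for Hoxb3, 1.56 for Hoxb4, 1.23 for Hoxb7, -2.55 for Hoxc6, -5.93 for Cdx2 and -3.65 for Pknox2 (limma adjusted p from 1.04e-07 for Cdx2 to 0.015 for Hoxb3). The log2 difference of KEAP1 KO #3 from #1 was 1.01 for Hoxb2, 1.42 for Hoxb4, 1.01 for Hoxb7, -2.54 for Hoxc6, -1.49 for Hoxd11, -4.55 for Cdx2 and -3.83 for Pknox2 (limma adjusted p from 1.45e-06 for Cdx2 to 0.0396 for Hoxd11). Hoxb2 and Hoxb7 lay next to the size asked for. Hoxd11 averaged 0.087 CPM in KEAP1 KO #3, under the 0.2 CPM of the filter, which it passed through other lines.

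Between KEAP1 KO #3 and #2, Cdx2 differed by 1.38 (limma adjusted p = 0.0460), with all KEAP1 KO #2 samples at 0. NRF2 KO differed from the mean of the 3 KEAP1 KO lines on the log2 scale by 1.02 in Hoxb2, 1.3 in Hoxb3, 2.46 in Hoxb5, 2.23 in Hoxb6, 1.35 in Hoxb8, 2.90 in Hoxb9, 1.73 in Hoxc6, -2.05 in Cdx2 and 2.96 in Pknox2 (limma adjusted p from 2.49e-05 for Cdx2 to 0.0332 for Hoxb8). That mean covers unlike clones for Hoxc6, Cdx2 and Pknox2, which were low in KEAP1 KO #2 and #3 and not in #1, and for Hoxb2 and Hoxb3, which were lowest in KEAP1 KO #1. Hoxb5, Hoxb6 and Hoxb9 passed the filter on low values only through LL2 WT and NRF2 KO, and Hoxc6 and Pknox2 through LL2 WT, NRF2 KO and KEAP1 KO #1, so that the filter favoured this direction for them. Cdx2 passed it only through KEAP1 KO #1, so that the filter favoured a higher level of Cdx2 in that line in the contrasts that hold it. The contrasts among the KEAP1 KO lines compare clones in which the same gene was knocked out. Since NRF2 KO is 1 clone, a difference between clones and a difference between knockouts cannot be told apart in its contrast.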

How the results depend on the processing

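Under the alternatives tried, 0 of the called Hox genes changed direction. The number called lower was 9, 5, 7 and 0 in KEAP1 KO #1, #2, #3 and NRF2 KO. With a pseudocount of 1 CPM it was 7, 2, 4 and 0, since the low genes Hoxb6 and Hoxc6 lose size by construction, and Hoxa2 and Hoxd11 were lost as well. With genes averaging at least 1 CPM in a line it was 8, 3, 4 and 0, because Hoxb6, Hoxc6 and Hoxd11 were not tested. With no filter it was 10, 6, 8 and 1, where Hoxc4 was added in each line (-1.07, -2.34, -2.22 and -2.09). Leaving out single samples gave 7 to 9, 4 to 6, 6 to 11 and 0 to 0. Fits without a trend, with quantile or median ratio scaling, with the 2 lines alone or with the third replicates as a factor or left out stayed within 1.5 times, although with the 2 lines alone Hoxb8 in KEAP1 KO #1 and Hoxd11 in KEAP1 KO #3 were lost. The replicate numbers did not pair the samples, since only 2 of 10 pairs of lines had a correlation above 0.1 for every number. The fit with the replicate number as a block called 9, 6, 8 and 0, adding Hoxb8 in KEAP1 KO #2 and #3. The contrasts between clones, in 3 alternatives chosen after the data were seen, gave the same number of called Hox genes, except that KEAP1 KO #3 against #1 had 4 higher with median ratio scaling (Hoxb3 added) and 2 without the third replicates (Hoxb2 lost) in place of 3. Of the alternatives for single called genes, 47 lost a call and 882 kept it.

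At 2 CPM, KEAP1 KO #1 held 9 Hox genes in place of 15, and 16 passed in any line. Median ratio scaling moved the sums in KEAP1 KO #1 to 35.7 CPM for HoxA and 38.98 CPM for HoxD, and with it HoxA was no longer above LL2 WT (36.2 CPM). The depth of each library is not in the table, and the study's methods give only an average over libraries, so no interval for counting error is given, and levels near 0.1 CPM rest on few reads.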
